A study of Homo sapiens with 14 samples.

Results

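The genes described here are 10 genes of the Notch segmentation clock, the oscillator and boundary machinery that cuts the paraxial mesoderm into somites: TBX6, MSGN1, HES7, LFNG, DLL1, DLL3, MESP2, RIPPLY1, PCDH8 and HES5. They were taken by name, by a rule that reads no measured value, though with earlier results of these data known, and all 10 were listed among the 63677 gene identifiers of the bulk RNA-seq tables and among the 17493 genes of the table of gastruloid nuclei. The share of nuclei with a transcript, the co-detection of the genes in the same nucleus, the accessible chromatin at their starts and their levels in 12 bulk libraries are reported. The samples are labelled as H9, a human embryonic stem cell (hESC) line.

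The gastruloid, an aggregate of hESCs that elongates and forms derivatives of several germ layers without an embryo, was a single preparation. It was started from 800 cells per well of hESC pretreated with 3 µM CHIR-99021, an activator of WNT signalling through inhibition of GSK-3, and was collected at 72 h. The aggregates were also formed in 3 µM CHIR-99021, with a Rock inhibitor, before the medium was replaced. Both RNA and open chromatin were read from the same nuclei. The bulk libraries formed 5 groups: hESC in mTSER Plus on Matrigel (2 libraries), definitive endoderm from hESC carrying dCAS9-KRAB without sgRNA (3 libraries), endoderm carrying dCAS9-KRAB with an sgRNA designed on the LTR5B consensus (LTR5 CRISPRi, 3 libraries), and the corresponding foregut control and LTR5 CRISPRi groups (2 libraries each). The hESC labels named no dCAS9-KRAB, so differentiation and the presence of the repressor cannot be told apart in the comparison of hESC with control endoderm. LTR5 is the long terminal repeat of the HERVK endogenous retroviruses, and dCAS9-KRAB is a cleavage-dead Cas9 fused to a repressor domain, delivered here by lentivirus with puromycin selection, and whether clones were picked is not given in the sources used here. Endoderm was made over 3 days with 100 ng/ml Activin A, with 5 µM CHIR-99021 on the first day and 0.5 µM on the second day, and foregut by 3 further days of differentiation.

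The labels of the foregut libraries disagreed among themselves. Their titles read FG_ctl and FG_CRISPRi, while the status fields read hESC and endoderm without sgRNA, and the groups here follow the titles. In the libraries titled FG_ctl the liver and foregut genes TTR, AFP and FOXA1 were higher than in control endoderm and the pluripotency genes NANOG and POU5F1 were lower, all past the test. HNF4A and HHEX were not called, and AFP stood at 4.76 and 189.3 CPM in the 2 libraries. Of the other pluripotency genes DPPA4 and L1TD1 fell, LIN28A was not called and SOX2 rose, from 23.3 to 166.9 CPM on average. The libraries titled FG_CRISPRi were not tested against control endoderm. In them TTR averaged 1722 CPM and FOXA1 146 CPM, while AFP had at most 1 read. The sgRNA was checked on the reads of its target repeats. In foregut, reads on LTR5B integrants were 6.67 ± 0.407 CPM (counts per 1000000 gene reads) in FG_ctl (SD, n = 2) and 2.66 ± 0.366 CPM in FG_CRISPRi (SD, n = 2), and the groups did not overlap, while LTR5_Hs did, with 8.24 and 8.72 CPM against 4.02 and 8.99 CPM. In endoderm both overlapped: LTR5B had 1.59 to 2.28 CPM in control and 1.02 to 2.07 CPM in LTR5 CRISPRi, and reads on LTR5_Hs integrants were 11.7 ± 1.12 CPM in control (SD, n = 3) and 9.84 ± 2.01 in LTR5 CRISPRi (SD, n = 3). Gene reads per library ranged from 11583063 to 37152434, the mitochondrial share from 8.30% to 34.7%, and the lowest correlation of log2 levels between libraries of 1 group was 0.949. Nothing in the labels said that replicates came from separate cultures. For RNA-seq the paper states that replicates were biologically independent, at least 2 per experiment. The p-values measure the spread between these libraries. In bulk RNA, fewer cells of a type and less RNA per cell cannot be told apart.

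In the presomitic mesoderm of the vertebrate tail, cells pass Notch signals to their neighbours while transcriptional repressors of the HES family switch themselves off with a delay, so that transcription comes in waves. The waves stop at a front set by falling FGF and WNT signals, where MESP genes fix the position of the next somite boundary. The clock is known mainly from mouse, chick and fish embryos and from human presomitic cells made in culture, and loss of several of these genes in people causes malformed vertebrae.

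The 10 genes fall into 4 roles. TBX6 (chr16:30097114-30103245, minus strand) is the T-box factor that gives paraxial mesoderm its identity, and MSGN1 (chr2:17997727-17999065, plus strand) is a basic helix-loop-helix factor of the posterior presomitic mesoderm. DLL1 (chr6:170591294-170615653, minus strand) is an activating Notch ligand, and DLL3 (chr19:39989535-39999121, plus strand) is a divergent ligand that acts within the cell that makes it. HES7 (chr17:8023910-8027424, minus strand) is the oscillating repressor at the core of the clock, HES5 (chr1:2460184-2461702, minus strand) is a Notch-induced repressor better known from neural progenitors, and LFNG (chr7:2552163-2568811, plus strand) is a glycosyltransferase that modifies Notch receptors. MESP2 (chr15:90303822-90321985, plus strand) sets the segment border, RIPPLY1 (chrX:106143293-106146571, minus strand) is a co-repressor that ends TBX6 activity there, and PCDH8 (chr13:53417024-53422776, minus strand), also called paraxial protocadherin, is an adhesion protein of the forming somite. These positions are on GRCh37, the build of the bulk gene models used here. DLL1 overlapped FAM120B and, on its own strand, ENSG00000271234. RIPPLY1 overlapped CLDN2 and, on its own strand, MORC4. LFNG overlapped MIR4648 on its own strand, and HES5 overlapped the gene ENSG00000272449 on the other strand. Whether reads were counted by strand is not given in the sources used here, and strand alone does not separate genes on the same strand. Reads of these genes may therefore in part come from the other gene.

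Accessible chromatin covered the starts of the clock genes in the gastruloid. Of the 8 genes with an entry in the RefSeq promoter table (GRCh38.p14, 250 bases before to 50 after the start), 8 had a deposited accessibility peak inside that window of 300 bases, as did 60.6% of 27305 genes. These outnumber the 20037 protein-coding genes, and a share of such windows for protein-coding genes alone was not computed. Peaks had been called over all nuclei together on GRCh38, numbered 205374 and had a median width of 878 bases. The peaks covered the whole window at TBX6, MSGN1, HES7, RIPPLY1, PCDH8 and HES5, 256 bases of it at MESP2, and 130 bases at the second of the entries of LFNG, whose other window held none. DLL1 and DLL3 had no entry in the promoter table. A peak at chr19:39498784-39499720 covered the start of DLL3, a peak at chr6:170290672-170291424 covered the 5′ end of DLL1, and 86.9% of 20037 protein-coding genes had at least 1 peak over their span. Spans here are those of gene models on GRCh38, which can differ in length from the GRCh37 positions above. HES7 had 5 peaks over its span there, the most of the 10 genes. That span, chr17:8120592-8126634, reaches upstream of its start in the promoter table, and its last peak lies at 8126322-8127119.

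The sequences before the start are shown for MESP2, MSGN1 and HES5, as examples of windows with motif letters of the factors of the clock itself. Windows of other clock genes held such letters too, LFNG and RIPPLY1 among them. The further motifs counted below are not marked here, though some lie in the MESP2 window. In the 250 bases before each start, capitals mark the RBPJ site TGGGAA (the DNA-binding partner of Notch), the T-box core AGGTG and the TCF and LEF site CTTTGA (the WNT effectors), each searched on both strands. All are from RefSeq, GRCh38.p14, written 5′ to 3′ on the strand of the gene. MESP2 is at chr15:89776082-89776331 (plus strand), MSGN1 at chr2:17816210-17816459 (plus strand) and HES5 at chr1:2530264-2530513 (minus strand).
MESP2: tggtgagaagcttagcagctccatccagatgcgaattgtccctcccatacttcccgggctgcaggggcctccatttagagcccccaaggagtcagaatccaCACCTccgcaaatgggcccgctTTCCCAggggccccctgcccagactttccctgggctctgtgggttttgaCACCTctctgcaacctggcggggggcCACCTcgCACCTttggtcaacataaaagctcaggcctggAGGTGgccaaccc
MSGN1: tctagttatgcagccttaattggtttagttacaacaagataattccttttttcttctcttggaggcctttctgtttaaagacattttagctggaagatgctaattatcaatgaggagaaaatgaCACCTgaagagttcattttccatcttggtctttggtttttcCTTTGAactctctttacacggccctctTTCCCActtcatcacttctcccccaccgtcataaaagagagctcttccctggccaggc
HES5: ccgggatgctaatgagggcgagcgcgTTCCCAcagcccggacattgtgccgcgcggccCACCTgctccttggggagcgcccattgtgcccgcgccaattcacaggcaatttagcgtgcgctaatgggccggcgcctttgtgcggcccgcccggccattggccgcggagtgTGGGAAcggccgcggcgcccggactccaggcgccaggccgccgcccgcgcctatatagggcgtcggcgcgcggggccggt

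MESP2 held 5 T-box cores and 1 RBPJ site, MSGN1 held 1 match to each of the 3 motifs, and HES5 held 2 RBPJ sites and 1 T-box core. The RBPJ letters were present in 4 of 8 genes (HES5, LFNG, MESP2 and MSGN1) and in 20.9% of all 35116 promoters. The T-box core was present in 5 of 8 (these 4 and RIPPLY1) and in 45.4% of all promoters, and the TCF and LEF letters in 1 of 8 (MSGN1) and in 11.2%. The longer T-box site AGGTGTGA, which contains the core, was present in none of the 8 and in 0.786% of promoters. E-boxes of the MESP and MSGN type (CATNTG) were present in 4 of 8 against 29.8% of promoters, class C sites of HES factors (CACGNG) in 3 of 8 against 26.7%, and N-boxes (CACNAG), which can share letters with class C sites, in 2 of 8 against 32.0%. LFNG was searched in both of its entries, so its chance of a match was larger. A match is a description of the letters in the window, not a bound site.

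In the gastruloid, DLL3, LFNG, HES7 and DLL1 were the most widely detected genes of the clock, and MSGN1 and HES5 the least. Nuclei with at least 1000 UMIs (unique molecules) and at most 25% mitochondrial UMIs numbered 3422 of 3646, with a median of 16302 UMIs. Because detection depends on depth, shares are given after thinning each nucleus to 5000 UMIs, which left 3197 nuclei and dropped 225 shallower ones. Intervals are exact binomial 95% intervals and cover counting error only, since nuclei of 1 preparation are not replicates. A doublet caller (Scrublet) marked 5 nuclei, or 0.146%, too few for its result to be relied on, and these nuclei stayed in.

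Among the ligands, DLL3 had a UMI in 35.8% of thinned nuclei (34.1 to 37.4%) and DLL1 in 22.02% (20.6 to 23.5%). The glycosyltransferase LFNG had one in 31.9% (30.3 to 33.5%). The oscillating repressor HES7 was found in 25.7% (24.1 to 27.2%) and its relative HES5 in 1.91% (1.46 to 2.44%). Of the boundary genes, RIPPLY1 was found in 18.8% (17.5 to 20.2%), PCDH8 in 8.38% (7.45 to 9.40%) and MESP2 in 6.26% (5.44 to 7.15%). The mesoderm factors TBX6 and MSGN1 were found in 12.1% (10.99 to 13.3%) and 4.85% (4.13 to 5.65%).

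Without thinning the shares were higher, from 4.47% for HES5 to 55.5% for LFNG, and LFNG then passed DLL3, which had a UMI in 50.8% of nuclei. Neighbours in the thinned order had intervals that did not overlap, except MESP2 and MSGN1, whose intervals met between 5.44% and 5.65%. The summed level ordered the genes a little differently, with DLL3 at 220.0 CPM (UMIs per 1000000 UMIs) and PCDH8, at 50.7, above TBX6, at 31.9. A few nuclei held many copies of some genes: the highest nucleus had 74 UMIs of PCDH8, 56 of DLL3 and 42 of RIPPLY1, but 11 of TBX6 and 7 of MSGN1. PCDH8 was thus carried by few nuclei at a high level, and TBX6 by more nuclei at a low level.

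**Figure D1:**
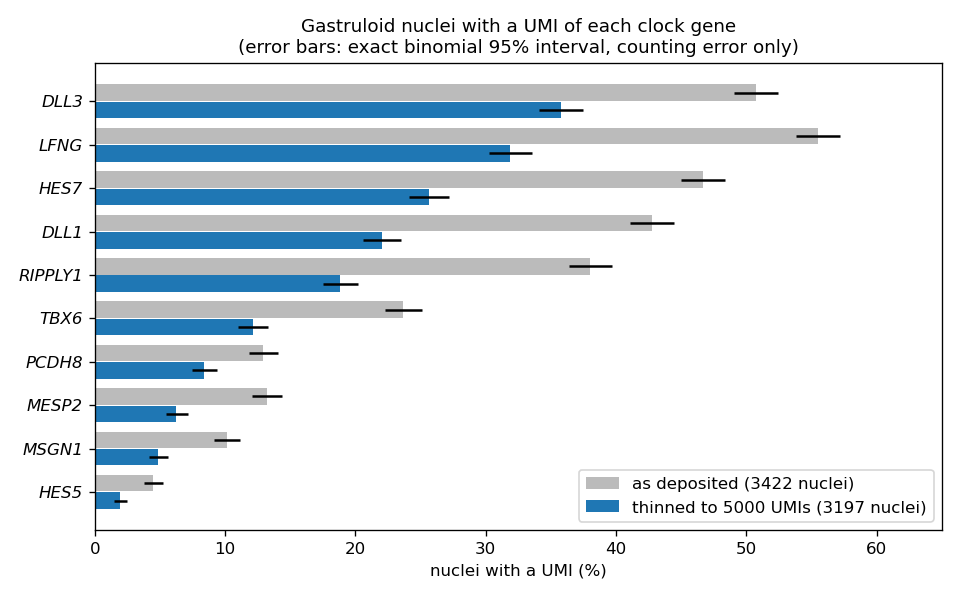
Share of gastruloid nuclei (%) with at least 1 UMI of each clock gene, as deposited (grey, 3422 nuclei) and after thinning to 5000 UMIs (blue, 3197 nuclei), with exact binomial 95% intervals for counting error as bars. Thinned shares run from 1.91% for HES5 to 35.8% for DLL3, and every gene has a lower share after thinning.

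At least 1 of the 10 genes was detected in 75.7% of thinned nuclei (74.2 to 77.2%), at least 2 in 45.8% (44.1 to 47.5%) and at least 5 in 5.29% (4.54 to 6.12%). No nucleus held all 10, and 1 nucleus held 9. Without thinning the first of these shares was 92.5% and the second 76.1%, so both depend on depth.

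The clock genes were concentrated in a few groups of nuclei. The nuclei were clustered without the 10 genes among the genes used, which gave 11 clusters, 8 of them of at least 200 nuclei. Cluster 9, 492 nuclei led by TAFA1, KCNH5 and SLC8A3, held 34.5% of all UMIs of the 10 genes in 14.4% of the nuclei. Cluster 5, 295 nuclei with SSTR2, TRPC6 and MEGF11 among its leading genes, held 24.7% in 8.62%, and cluster 1, 502 nuclei, held 17.2% in 14.7%. Summed over the 10 genes, cluster 5 had 1738 CPM, cluster 9 had 1558, cluster 1 had 612.7 and cluster 8, the lowest of the larger clusters, 209.9. Clusters 9 and 5 were given no cell type name: of the 6 presomitic markers RSPO3 was the only one outside the clock genes that was more than 2-fold higher in cluster 9, and 3 of the 8 somite markers in the table (MEOX1, FOXC2 and ALDH1A2) were so in cluster 5. Cluster 1 was axial mesoderm-like, with 8 of 8 markers of the notochord lineage (SHH, NOTO and CHRD among them) more than 2-fold higher, and cluster 6 was tail bud-like, with 6 of 8 markers. TBXT and WNT3A were not among these 6, with 53.9 and 26.0 CPM in cluster 6 against 238.2 and 74.7 in cluster 1. Of the neural markers 2 of 5 in the table (SOX2 and SOX3) were also more than 2-fold higher in cluster 6. So were 3 of 6 pluripotent markers (SOX2, L1TD1 and LIN28A).

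Cluster 9 held the mesoderm factors. TBX6 had a UMI in 48.4% of its thinned nuclei (43.8 to 53.0%), against 12.0% in cluster 5 and 2.33% in cluster 8, the lowest. MSGN1 was found in 23.6% (19.8 to 27.7%), against 4.55% in cluster 11 and 0.785% in cluster 6, and cluster 9 carried 74.9% of all its UMIs. DLL1 was found in 60.1% of cluster 9 (55.5 to 64.5%), 27.7% of cluster 5 and 8.64% of cluster 6. MESP2 was also highest there, at 17.8% (14.5 to 21.6%), against 8.90% in cluster 5 and 1.72% in cluster 3. At the finer resolution of 1.0 cluster 9 came apart, with 361 of its 492 nuclei in 1 cluster where MESP2 was found in 10.8%, PCDH8 in 9.01% and MSGN1 in 28.2%, and 119 in another where MESP2 and PCDH8 were each found in 38.7% and MSGN1 in 10.5%. The lowest share among the larger clusters is given as the background for each gene. The median depth before thinning was 17568 UMIs in cluster 9, 17971 in cluster 5, 12952 in cluster 8 and 17035 in cluster 6.

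DLL3 was found in most nuclei of both clusters 9 and 5, at 94.1% (91.5 to 96.0%) and 88.4% (84.1 to 91.8%), against 7.85% in cluster 6. Cluster 5 held the boundary genes RIPPLY1, at 57.9% (52.0 to 63.6%), and PCDH8, at 49.7% (43.8 to 55.5%). PCDH8 was found in 16.8% of cluster 9 and 1.04% of cluster 1, and 71.2% of its UMIs lay in cluster 5. RIPPLY1 had its lowest share, 8.49%, in cluster 9, where TBX6 was highest. It was also found in 35.8% of cluster 11, whose median depth was 6588 UMIs and of whose 294 nuclei 176 were deep enough to be thinned.

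The oscillator genes HES7 and LFNG were highest outside clusters 9 and 5. In the axial mesoderm-like cluster 1, HES7 had a UMI in 62.0% of nuclei (57.5 to 66.3%) and LFNG in 56.3% (51.8 to 60.8%). HES7 followed in cluster 9 at 42.5% (37.95 to 47.1%) and in the tail bud-like cluster 6 at 32.2%, and was lowest in cluster 8 at 8.53%. LFNG followed in cluster 11 at 40.9% and was lowest in cluster 6 at 8.64%. Cluster 6 therefore held HES7 with little LFNG, DLL1 or DLL3, the last at 7.85%. HES5 was highest in cluster 3, led by EBF1 and FLT1, at 5.58% (3.00 to 9.35%), and was found in 4.19% of cluster 6, 0.849% of cluster 9 and 0.517% of cluster 8, the lowest. The counting intervals of HES5 in clusters 3 and 6 overlapped, and its place depended on the clustering: at resolution 0.3 it was highest, at 5.81%, in the cluster that held most nuclei of cluster 5, and at resolution 1.0 it reached 12.4% of 113 thinned nuclei in another cluster.

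**Figure D2:**
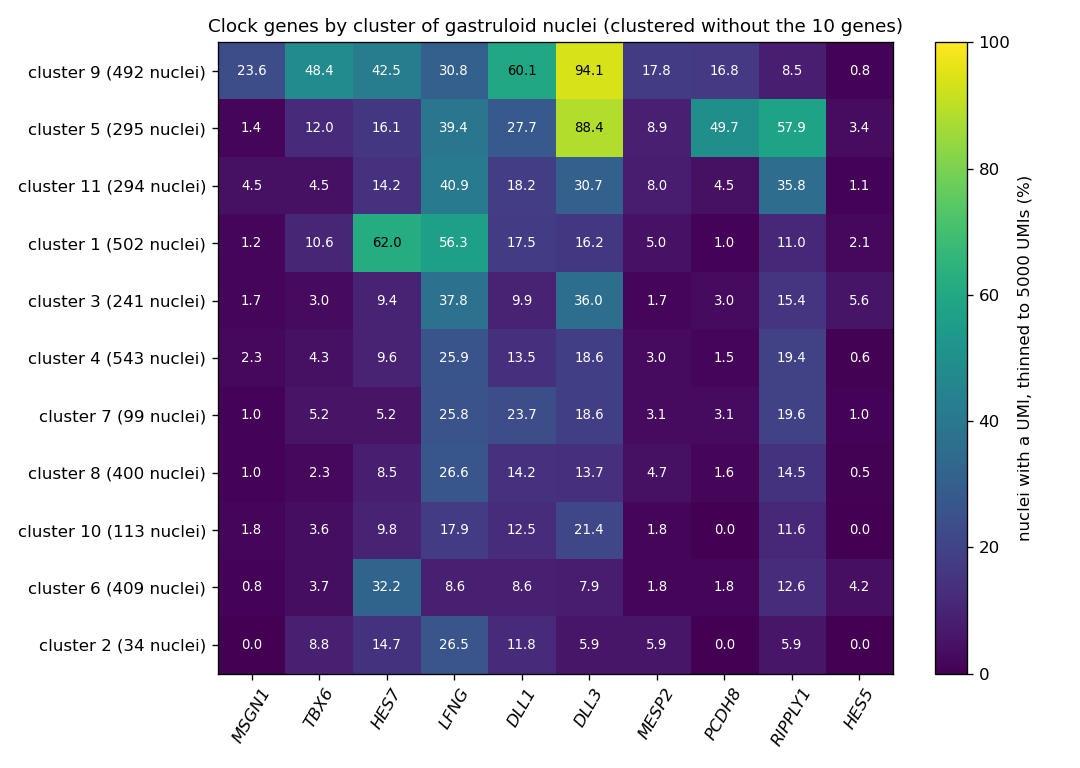
Share of nuclei (%) with a UMI of each clock gene after thinning to 5000 UMIs, by cluster (rows, with the number of nuclei before thinning) and gene (columns). The mesoderm factors and DLL1 are highest in cluster 9, RIPPLY1 and PCDH8 in cluster 5, HES7 and LFNG in cluster 1, and DLL3 stands at 94.1% and 88.4% in clusters 9 and 5.

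Among thinned nuclei of cluster 9, 91.3% held at least 2 of the 10 genes and 21.0% at least 5, against 85.3% and 14.7% in cluster 5 and 16.0% and 0.785% in cluster 6.

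Co-detection was then read pair by pair. For each pair the number of nuclei with UMIs of both genes was divided by the number given by the product of their shares, at the fixed depth of 5000 UMIs. Of the 45 pairs, 43 had a product of at least 5 nuclei: 37 lay above 1 and 6 below. In 24 of the 43 the share of the second gene among nuclei with the first had an interval above that among nuclei without it, and in 2 an interval below. All genes share nuclei, clusters and libraries, so these ratios are descriptions.

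The highest ratios were those of the boundary pair MESP2 and PCDH8 and of the mesoderm factors TBX6 and MSGN1. MESP2 and PCDH8 were both found in 53 nuclei, 3.16 times the product of 16.8, and TBX6 and MSGN1 in 59 nuclei, 3.15 times the product of 18.8. MSGN1 had a UMI in 15.3% of nuclei with TBX6 (11.8 to 19.2%) and in 3.42% of nuclei without it (2.78 to 4.16%). PCDH8 had a UMI in 26.5% of nuclei with MESP2 (20.5 to 33.2%) and in 7.17% without it. RIPPLY1 and PCDH8 shared 139 nuclei, 2.75 times the product. DLL3 was found in 73.4% of nuclei with TBX6 (68.7 to 77.7%) and in 30.6% without. The ligands DLL1 and DLL3 shared 423 nuclei, 1.68 times the product.

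The oscillator pair HES7 and LFNG shared 351 nuclei, 1.34 times the product of 261.4. LFNG had a UMI in 42.8% of nuclei with HES7 (39.4 to 46.3%) and in 28.1% without (26.3 to 29.96%). The pairs whose intervals lay below were MSGN1 with RIPPLY1, with 17 nuclei at 0.583 of the product, and HES7 with RIPPLY1, with 110 nuclei at 0.712 of the product. RIPPLY1 was found in 10.97% of nuclei with MSGN1 (6.52 to 16.98%) and in 19.2% without (17.8 to 20.7%). Without thinning, MSGN1 with RIPPLY1 stayed below, at 0.783 of the product, while HES7 with RIPPLY1 stood at 0.961 with overlapping intervals. TBX6 with RIPPLY1, 62 nuclei at 0.851 of the product, had overlapping intervals. TBX6 or MSGN1 was found in 15.1% of nuclei and PCDH8 or RIPPLY1 in 22.9%, and 115 nuclei were in both sets, against a product of 110.4.

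Within cluster 9, of 36 pairs with a product of at least 5 nuclei, 24 lay above 1 and 12 below. TBX6 and MSGN1, which stood together over all nuclei, shared 55 of the 471 thinned nuclei against a product of 53.7 (ratio 1.02). MSGN1 and MESP2 shared 5 nuclei against a product of 19.8 (ratio 0.253): MESP2 had a UMI in 4.51% of nuclei with MSGN1 (1.48 to 10.2%) and in 21.9% of those without (17.8 to 26.6%). MSGN1 and PCDH8 shared 8 nuclei against 18.6 (ratio 0.430), with PCDH8 in 7.21% of nuclei with MSGN1 (3.16 to 13.7%) and 19.7% of those without (15.7 to 24.2%). Over all nuclei MSGN1 and MESP2 had a ratio of 0.825, and 1.21 without thinning, where nuclei differ in depth. Both genes had their highest share in cluster 9, so ratios over all nuclei also hold differences between clusters and cannot be set against the ratio inside it. Within the 2 clusters into which cluster 9 came apart at resolution 1.0, a reading added after the data were seen, MSGN1 and MESP2 shared 2 of 344 nuclei against a product of 10.4 (ratio 0.192) and 3 of 124 against 5.03 (ratio 0.596). MESP2 was found in 2.06% of MSGN1 nuclei of the first (0.251 to 7.25%) against 14.2% of the others (10.1 to 19.2%), and in 23.1% of the second (5.04 to 53.8%) against 40.5% (31.3 to 50.3%), where the intervals overlapped.

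MESP2 and PCDH8 stayed together inside cluster 9, in 30 nuclei against a product of 14.1 (ratio 2.13), as did DLL1 and PCDH8 in 65 against 47.5 (ratio 1.37) and HES7 and LFNG in 79 against 61.6 (ratio 1.28). LFNG was found in 39.5% of the nuclei of cluster 9 with HES7 (32.7 to 46.6%) and in 24.4% of those without (19.4 to 29.9%). Of the 36 pairs in this cluster, 5 had intervals above and 2 below, the 2 being the MSGN1 pairs with MESP2 and PCDH8. In cluster 5, RIPPLY1 and PCDH8 shared 109 of 292 thinned nuclei against a product of 83.9 (ratio 1.30), and no pair there had an interval below. In cluster 1, HES7 and LFNG shared 183 nuclei against 167.9 (ratio 1.09).

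**Figure D3:**
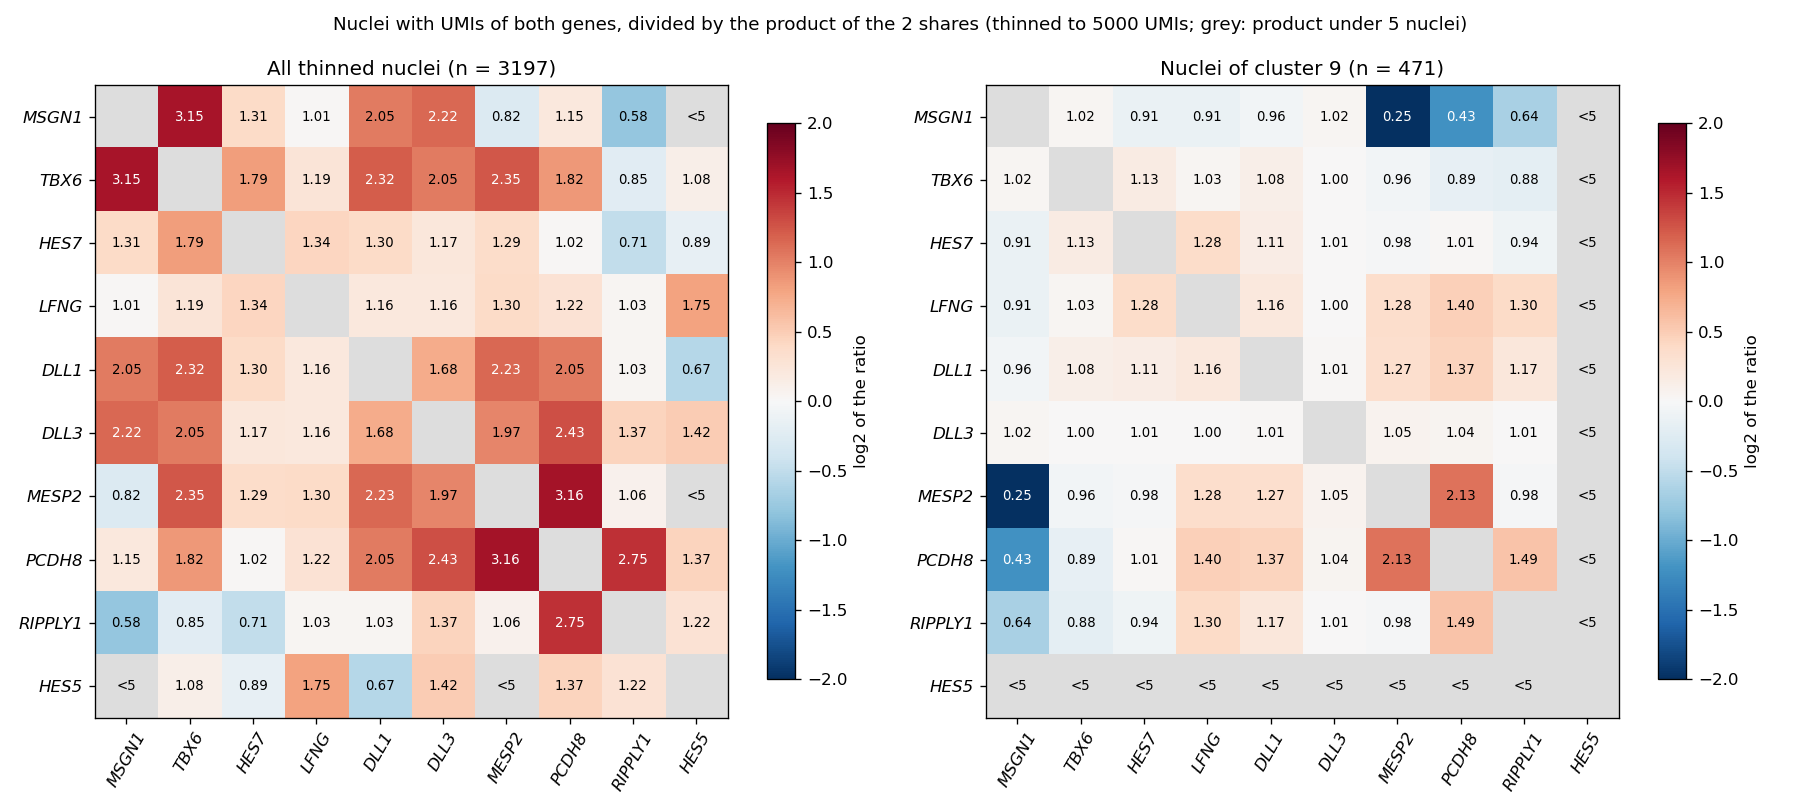
Ratio of the number of nuclei with UMIs of both genes to the product of their shares, for all thinned nuclei (left, 3197) and for cluster 9 (right, 471), coloured on a log2 scale; grey cells have a product under 5 nuclei. TBX6 and MSGN1 change from 3.15 over all nuclei to 1.02 in cluster 9, MSGN1 and MESP2 stand at 0.25 in cluster 9, and MESP2 and PCDH8 are above 2 in both.

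Each clock gene was also set beside 14838 genes detected in at least 1% of thinned nuclei, by Pearson's r of log levels over 3197 nuclei. These correlations share libraries and depth and are given without a test. DLL3 had the highest values, with MEST (an imprinted mesoderm gene) at 0.645, PCDH19 at 0.567, APLNR (the apelin receptor) at 0.560, CXCR4 (a chemokine receptor) at 0.554 and ANOS1 at 0.544. PCDH8 followed, with SSTR2 at 0.465, RELN at 0.453, ADGRL2 at 0.439, TRPC6 at 0.433 and PRL at 0.404. All values of the other clock genes were under 0.4, which in counts this sparse is no finding. MESP2 stood nearest to RIPPLY2 (0.370), HES7 to CHRD (0.363), RIPPLY1 to MORC4, a gene it overlaps on the same strand (0.333), TBX6 to KCNH5 (0.320), DLL1 to MEST (0.320), LFNG to HES4 (0.293) and MSGN1 to SLC8A3 (0.247), and HES5 was under the detection limit of 2% of nuclei set for this reading.

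In the bulk libraries the question was which clock genes are present when hESCs of the same line are directed to endoderm and foregut, in which no somites form. Levels are CPM after TMM scaling over the 12 libraries, and genes are compared with each other only as CPM per kilobase of exon. In hESC, LFNG led with 3.86 ± 1.16 CPM per kilobase (SD, n = 2), followed by DLL1 at 1.20 ± 0.0481 and DLL3 at 0.595 ± 0.104. In control endoderm DLL3 led with 14.9 ± 5.69 CPM per kilobase (SD, n = 3), followed by TBX6 at 4.75 ± 2.21, RIPPLY1 at 3.22 ± 0.596, MESP2 at 0.955 ± 0.228, LFNG at 0.801 ± 0.219 and DLL1 at 0.669 ± 0.419. Of these neighbours, TBX6 and RIPPLY1, and MESP2, LFNG and DLL1, lay within their spreads of each other. In control foregut the order was DLL1 at 3.00 ± 0.184 CPM per kilobase (SD, n = 2), DLL3 at 1.59 ± 0.839 and LFNG at 1.25 ± 0.147, of which the last pair lay within the spread. MSGN1, PCDH8 and HES5 stayed at or under 0.165 CPM per kilobase on average in every bulk group.

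**Figure D4:**
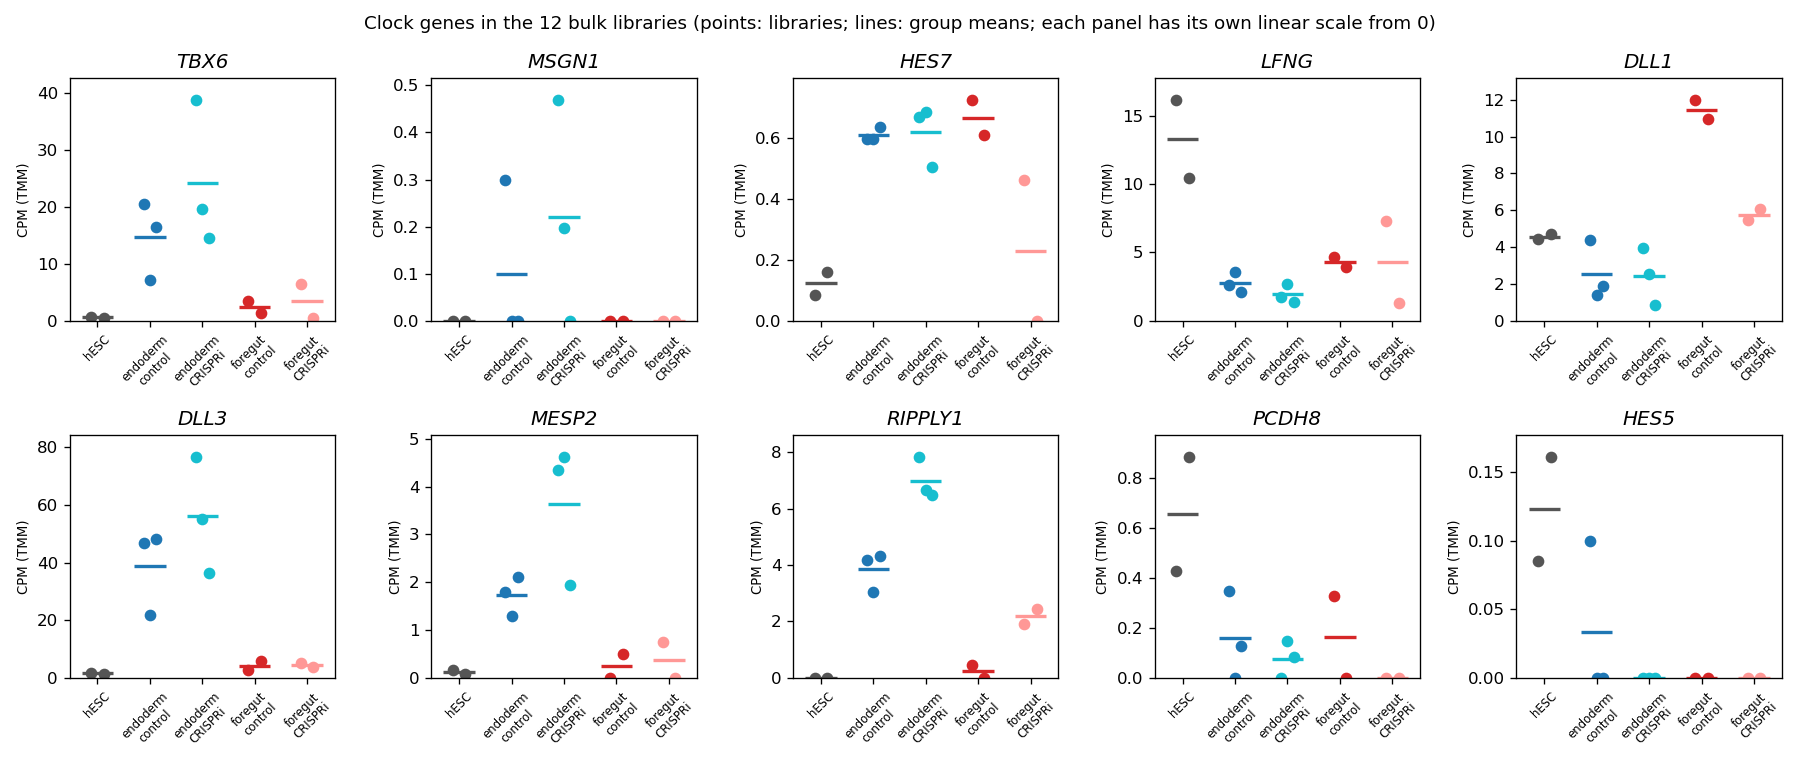
CPM of each clock gene in the 12 bulk libraries (points), by group, with the group mean as a line; each panel has its own linear axis from 0. TBX6, DLL3, MESP2 and RIPPLY1 are highest in both endoderm groups, LFNG in hESC and DLL1 in control foregut.

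From hESC to control endoderm, 5 of the 10 genes rose (TBX6, DLL3, MESP2, RIPPLY1 and HES7) and LFNG fell, at an adjusted p under 0.05 and a fold over 2 by edgeR's quasi-likelihood test with Benjamini-Hochberg adjustment. These 6 of 10 stand beside 26% of the 20818 genes tested that were called in either direction, 14.2% of genes called higher and 11.8% called lower. The groups did not overlap in 8 of the 10 genes, against 60.3% of all genes tested, and 7 had an unadjusted p under 0.05, against 46.1%. The median log2 fold change was 2.25 over 9 genes, with RIPPLY1 set at its bound and MSGN1 left out, and 0.0448 over all genes.

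DLL3 stood at 1.75 and 1.37 CPM in the hESC libraries and at 46.9, 21.7 and 48.1 CPM in control endoderm. Every endoderm library was above both hESC libraries, and the log2 difference was 4.64 (SE 0.38, adjusted p = 1.5e-07). TBX6 stood at 0.684 and 0.563 CPM in hESC and at 20.6, 7.21 and 16.4 CPM in endoderm, or 4.56 on the log2 scale (SE 0.46, adjusted p = 1.59e-06). For both genes the endoderm library of replicate 2 was the lowest of the 3.

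MESP2 had 0.171 and 0.0804 CPM in hESC and 1.79, 1.29 and 2.103 CPM in endoderm, a log2 difference of 3.72 (SE 0.58, adjusted p = 0.000111). With all 12 libraries in 1 fit its adjusted p was the highest of 14 alternatives, 0.0672, against a lowest of 2.98e-08. RIPPLY1 had no read in either hESC library, which allows up to 0.128 CPM by 3 counts per library, and 4.18, 3.03 and 4.33 CPM in endoderm. It was at least 30.02-fold higher in endoderm (adjusted p = 4.85e-07), with 66 to 84 reads per endoderm library.

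HES7 rose from 0.0854 and 0.161 CPM to 0.597, 0.597 and 0.637 CPM, a log2 difference of 2.25 (SE 0.74, adjusted p = 0.0251). It rested on 2 to 4 reads per hESC library and 10 to 13 per endoderm library, and under 14 alternatives its adjusted p ran from 0.0206 to 0.289, with the call lost in 7. Leaving out hESC replicate 1 or 2 or endoderm control replicate 2 or 3 each ended the call, with log2 fold changes of 1.88, 2.75, 2.26 and 2.21. LFNG fell from 16.1 and 10.5 CPM to 2.59, 3.58 and 2.103 CPM, or -2.25 on the log2 scale (SE 0.30, adjusted p = 2.23e-05). LFNG thus moved against the other called clock genes.

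The other members did not pass. DLL1 had 4.44 and 4.70 CPM in hESC and 4.38, 1.38 and 1.91 CPM in endoderm (log2 fold change -0.83, SE 0.40, adjusted p = 0.113). Without endoderm control replicate 1, the library closest to hESC, DLL1 passed with a log2 fold change of -1.49. PCDH8 had 0.427 and 0.884 CPM in hESC and 0.348, 0 and 0.128 CPM in endoderm (log2 fold change -2.02, SE 0.87, adjusted p = 0.0796), and without endoderm control replicate 1 it passed with -3.46. HES5 had at most 4 reads in any bulk library, and MSGN1 had reads in only 1 of the 3 control endoderm libraries, 6 of them.

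Cell type markers also changed. The 6 presomitic markers, 4 of which are clock genes, summed to 14.9 CPM in hESC and 908.7 CPM in control endoderm, of which CYP26A1 alone made 12.3 and 852.7 CPM, with MSGN1 at or near 0. In endoderm against hESC 5 of 6 presomitic markers rose, CYP26A1 and RSPO3 besides the clock genes, and 6 of 6 endoderm markers rose. GATA6, SOX17 and GATA4 had no read in hESC and 366.4, 241.6 and 240.3 CPM on average in endoderm, and CER1 had 0.190 and 3863 CPM. Of the tail bud markers 4 of 8 rose and 2 fell, FGF17, TBXT and FGF8 among the former. Their part in the clock gene result was not tested. Of the somite markers tested 2 of 6 rose (PAX3 and ALDH1A2), of the axial markers 4 of 8 rose and 2 fell, of the cardiac and lateral markers 4 of 6 rose and 1 fell, of the neural markers 1 of 8 rose and 5 fell, of the pluripotent markers 3 of 6 fell, of the foregut and liver markers 2 of 4 rose and 1 fell, and of the endothelial and blood markers 1 of 3 fell (TAL1).

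Other genes of the pathway were read in the same comparison. Of the Notch receptors and other ligands 1 of 7 rose (DLK1, log2 fold change 2.94), and the median was -0.06. Of the enzymes and nuclear partners of Notch 2 of 15 rose and 2 fell. MAML3, a coactivator of the Notch complex, rose by 3.21 on the log2 scale, while MAML2 (-1.71) and the protease subunit PSEN2 (-1.61) fell. Of the Notch targets and feedback genes 1 of 8 rose (HES4, with 1 read per hESC library and 0.494 ± 0.0962 CPM in endoderm, SD, n = 3) and 2 fell, DTX1 (-2.69) and NRARP (-2.68). Of the WNT and FGF targets that cycle or form gradients around the clock 5 of 10 rose and 1 fell, and the median was 1.19. SP5 had 0.123 ± 0.0532 CPM in hESC (SD, n = 2) and 53.1 ± 4.59 in endoderm (SD, n = 3), DKK1 had 0.0829 ± 0.00359 and 15.7 ± 7.97, and DUSP4 rose by 3.52 on the log2 scale. Of the segment boundary and polarity genes 4 of 8 rose and 1 fell, among them MESP1, a relative of MESP2 (3.84), and EPHA4 (2.34). UNCX, a gene of the posterior somite, had no read in hESC and 1.52 ± 0.449 CPM in endoderm (SD, n = 3).

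From control endoderm to control foregut, 3 clock genes fell (TBX6, DLL3 and RIPPLY1) and DLL1 rose. These 4 of the 9 genes tested stand beside 29% of 21466 genes called, 14.1% higher and 15% lower, and the groups did not overlap in 6 of the 9, against 58.9% of all genes. An unadjusted p under 0.05 was found in 5 of the 9, against 44.5% of all genes. The comparison shares the control endoderm libraries with the previous one. Whether foregut and endoderm libraries were prepared together is not given in the sources used here, so tissue and preparation cannot be told apart. The fitted median was -2.60 over the 9 genes and -0.01 with MSGN1 at its bound, which rests on 6 reads in 1 library and is then itself the middle value, against -0.0914 over all genes.

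DLL1 had 12.0 and 10.97 CPM in control foregut against 4.38, 1.38 and 1.91 CPM in control endoderm, a log2 difference of 2.16 (SE 0.47, adjusted p = 0.00718). DLL3 had 2.60 and 5.70 CPM in foregut, below every endoderm library, or -3.21 on the log2 scale (SE 0.48, adjusted p = 0.00108). The ligands of the clock thus moved in opposite directions. TBX6 had 3.45 and 1.42 CPM in foregut, a log2 difference of -2.60 (SE 0.55, adjusted p = 0.00616).

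RIPPLY1 had 0.460 and 0 CPM in foregut, or -4.11 on the log2 scale (SE 1.04, adjusted p = 0.0145). Without endoderm control replicate 1 its call was lost at -3.97, and over 14 alternatives its adjusted p ran from 1.5e-05 to 0.0714. MESP2 had 0 and 0.507 CPM in foregut (log2 fold change -2.68, SE 1.15, adjusted p = 0.102) and passed under 5 alternatives, among them without foregut control replicate 1 (-1.75) and without replicate 2, which left the library with no read. LFNG had 4.67 and 3.95 CPM in foregut, above every control endoderm library (log2 fold change 0.64, SE 0.40, adjusted p = 0.231), and HES7 had 0.723 and 0.608 CPM (log2 fold change 0.13).

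Among the other genes of the pathway, Notch targets rose in foregut in 4 of 8 tested, with HES4 (4.16), HEY1 (3.25) and NRARP (1.69) the largest, and none fell. Receptors and other ligands rose in 3 of 8, with NOTCH4 (2.93), DLK1 (2.35) and the endothelial ligand DLL4, which stood at 10.6 ± 0.827 CPM in foregut (SD, n = 2) and 0.0166 ± 0.0287 in endoderm (SD, n = 3), and 1 fell (NOTCH1). Processing and nuclear partners rose in 2 of 15 (PSEN2 and PSENEN) and fell in 1 (MAML3). The WNT and FGF targets fell in 9 of 10, SP5 (-7.29), DKK1 (-5.30) and SPRY4 (-5.08) among them, with a median of -3.47. Of the segment boundary and polarity genes 2 of 9 rose and 4 fell, MESP1 (-4.45) among the latter. UNCX fell to no read in foregut, and MEOX1, with no read in any endoderm library, stood at 1.40 ± 0.862 CPM in foregut (SD, n = 2).

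Marker lists again moved in the same comparison: 6 of 8 tail bud markers fell and 2 rose, 3 of 6 presomitic markers fell and 1 rose, and 4 of 8 somite markers rose. Of the axial markers 4 of 7 rose and 2 fell, 2 of 7 neural markers rose and 1 fell, and 4 of 6 endoderm markers fell and 1 rose. Of the foregut and liver markers 3 of 5 rose, 4 of 6 pluripotent markers fell and 1 rose, and 3 of 6 cardiac and lateral markers fell. Of 4 endothelial and blood markers 1 rose, CDH5, from 0.0944 to 30.8 CPM on average. KDR fell, from 98.35 to 28.6 CPM. The part of the marker lists in the changes of the clock genes was not tested.

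LTR5 CRISPRi called none of the clock genes in endoderm. Of 9 genes tested by edgeR, 0 passed, 2 (RIPPLY1 and MESP2) had an unadjusted p under 0.05, and limma voom and DESeq2 also called 0. Over all 20407 genes 0.0343% were called, 0.0049% higher and 0.0294% lower, 5.17% had an unadjusted p under 0.05, and the groups did not overlap in 10%. RIPPLY1 had 7.82, 6.67 and 6.48 CPM with the sgRNA against 4.18, 3.03 and 4.33 CPM without, and the groups did not overlap (log2 fold change 0.87, SE 0.26, adjusted p = 0.524). MESP2 had 4.35, 4.61 and 1.93 CPM against 1.79, 1.29 and 2.103 CPM, with overlap (log2 fold change 1.09, SE 0.36, adjusted p = 0.634). TBX6 (0.72), DLL3 (0.53) and MSGN1 (1.09) also had positive estimates and LFNG (-0.49) and PCDH8 (-0.89) negative ones, DLL1 (-0.05) and HES7 (0.04) were near 0, HES5 was not tested, and the median was 0.53 against -0.02 over all genes. None of the lists of Notch, WNT, FGF and boundary genes or of cell type markers held a called gene. The cardiac and lateral markers HAND1 (37.2 to 53.0 against 11.7 to 25.6 CPM) and FOXF1 (2.60 to 5.48 against 0.597 to 1.24 CPM) were also without overlap and higher. The pluripotency gene NANOG (5.88 to 18.5 against 21.99 to 30.34 CPM) was without overlap and lower. These genes were chosen here after their values were seen. HAND2, with at most 14 reads per library, was likewise higher and DPPA4 lower, both without overlap. The others of these lists, GATA4, TBX5 and ISL1, and POU5F1, SOX2, L1TD1 and LIN28A, overlapped. The part of these markers in the values of RIPPLY1 was not tested.

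In foregut 0 of 8 clock genes tested passed by edgeR, 0 had an unadjusted p under 0.05, and limma voom and DESeq2 called 0. Over all 20044 genes 0.165% were called, 0.0499% higher and 0.115% lower, 3.49% had an unadjusted p under 0.05, and the groups did not overlap in 27.3%, beside 3 of the 8 clock genes. The CRISPRi libraries of foregut differed widely from each other, with 182 and 13 reads of TBX6, 206 and 29 of LFNG and 13 and 0 of HES7. DLL1 had 5.46 and 6.05 CPM with the sgRNA against 12.0 and 10.97 CPM without, which did not overlap (log2 fold change -0.99, SE 0.58, adjusted p = 0.9996). RIPPLY1 had 1.91 and 2.46 CPM against 0.460 and 0 CPM, also without overlap (log2 fold change 3.26, SE 2.21, adjusted p = 0.9996). HES7 had 0.461 and 0 CPM against 0.723 and 0.608 CPM, the third gene without overlap. The estimates of TBX6 (0.56), MESP2 (0.56), DLL3 (0.08) and LFNG (0.02) were within their SE of 0, PCDH8 had no read with the sgRNA, and MSGN1 and HES5 were not tested. In the other lists CDX2, a tail bud marker, and AFP, a liver marker, were the genes called, both lower, CDX2 with 2.70 ± 1.51 CPM against 18.5 ± 8.90 (SD, n = 2 each). AFP had at most 1 read with the sgRNA, but its control libraries differed widely, with 188 and 5759 reads.

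The effect of the sgRNA was compared between tissues in 1 model over both. Of 9 clock genes 0 passed by edgeR or any other tool run, 1 had an unadjusted p under 0.05, and over 22708 genes 0.194% were called, 0.0528% higher and 0.141% lower, and 8.23% had an unadjusted p under 0.05. RIPPLY1 was that gene, with a difference of log2 fold changes, foregut minus endoderm, of 2.41 (SE 1.09, adjusted p = 0.597). The differences of HES7 (-1.51), DLL1 (-0.94), MESP2 (-0.53), DLL3 (-0.46), TBX6 (-0.17) and LFNG (0.50) had an adjusted p of at least 0.9055, MSGN1 and PCDH8 had a group at 0, and HES5 was not tested. In the other lists SP5 and HAND1 were called, with a lower difference.

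**Figure D5:**
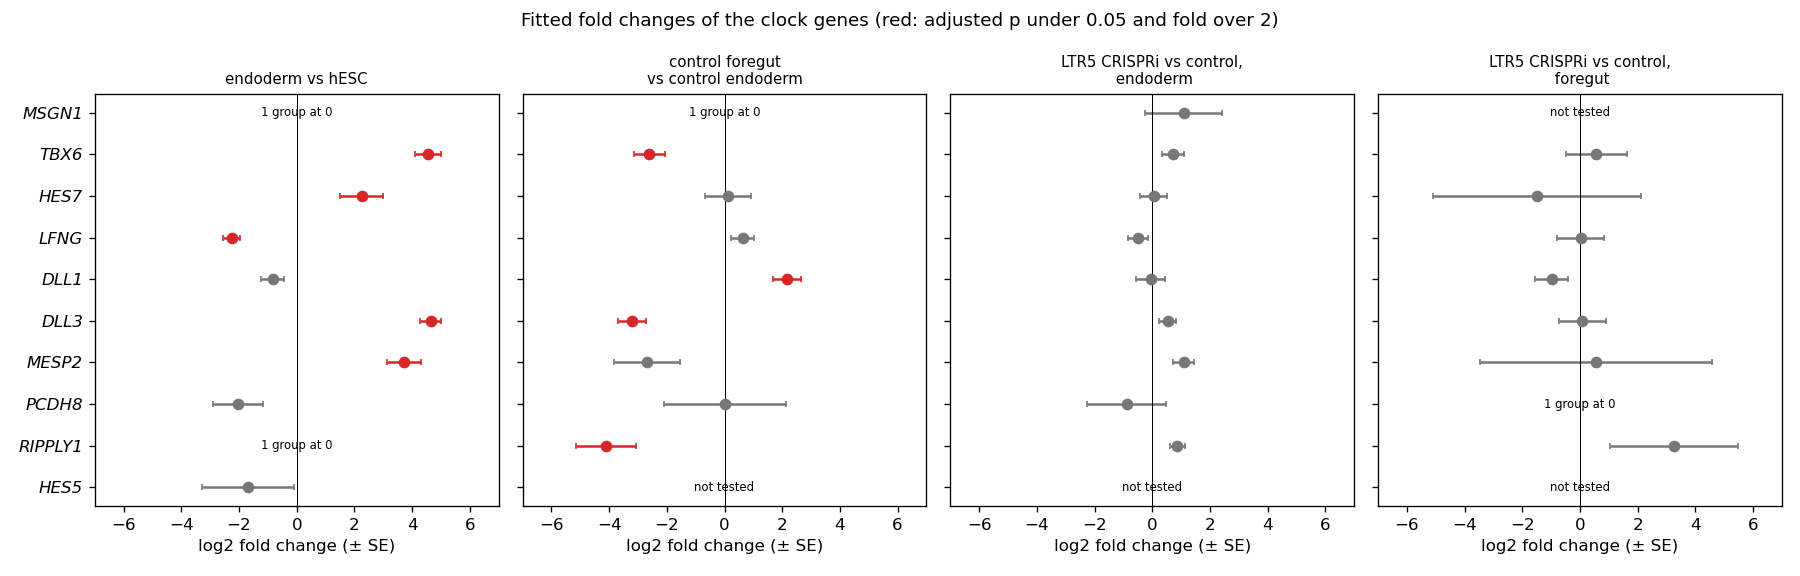
Log2 fold change ± SE of each clock gene in 4 comparisons (columns), with red points for an adjusted p under 0.05 and a fold over 2 and grey points otherwise; genes with a group at 0 or not tested carry no point. Both differentiation steps hold red points, and neither LTR5 CRISPRi comparison does.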

How the data were processed

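Bulk RNA-seq libraries (stranded mRNA kit) were deposited by the authors as raw read counts per gene with Ensembl identifiers, after HISAT2 alignment to hg19 and joint counting of uniquely mapped reads on genes and transposable elements with featureCounts. UMI counts per gene and nucleus and a peak list on GRCh38 (Cell Ranger ARC, cellranger-arc 2.0.0 in the file header) were deposited for the gastruloid. The deposited counts of transposable element integrants were summed per LTR5 subfamily. Foregut libraries were assigned by their titles.

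Genes with at least 3 reads in 1 library of a comparison were fitted with edgeR 4.0.16 (TMM, quasi-likelihood F test, 2-sided, R 4.3.3) on all genes, with Benjamini-Hochberg adjustment, and called at adjusted p under 0.05 and fold over 2. limma 3.58.1 (voom) and DESeq2 1.42.0 were alternatives, with other filters, all 12 libraries in 1 fit, a replicate block and each library left out. The fits were tested on simulated data. Floors are 3 counts per library. Nuclei were thinned and clustered with scanpy 1.11.5 (1990 variable genes after removal of the clock genes, 30 components, 15 neighbours, Leiden resolution 0.5). Exon lengths come from GENCODE on GRCh37. Identifiers without a symbol took 0.353 to 0.526% of reads and stayed in the fit.

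The rule for named genes took the 10 clock genes, at most 3 called genes per other list and comparison by absolute log2 fold change, and the 5 genes of highest correlation per clock gene, of which the first alone is printed where all were weak. NOTCH1, RSPO3, CER1, the markers and other list genes set beside RIPPLY1 and the further markers set beside the foregut titles were named after their values were seen. The genes and lists were chosen with earlier results of these data known.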

Additional observations from a re-analysis of the deposited data

How the results depend on the processing

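Of 514 alternative values of single fold changes, 474 kept direction and side of the threshold, 9 lost the call, 12 gained one and 19 changed sign. Of 82 alternative shares of nuclei for single genes, 39 stayed within the counting interval and 43 moved. The number of clock genes called ran from 4 to 8 in endoderm against hESC and from 3 to 5 in foregut against endoderm. Without adjustment but with a fold over 2, 1 gene passed for LTR5 CRISPRi in endoderm and 1 for the difference between tissues. At least 1 clock gene was found in 92.5% of nuclei without thinning, 58.9% at 2500 UMIs and 89.9% at 10000 UMIs, and at least 2 in 76.1%, 27.5% and 66.6%, since fewer UMIs per nucleus show fewer genes. The cluster with most clock gene UMIs held 33.9% at resolution 0.3 and 23.9% at resolution 1.0, against 34.5%. At 1.0 it was no longer the counterpart of cluster 9, which came apart into clusters with 22.9% and 12.0%, but that of cluster 5.

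Signs changed only for genes not called. In LTR5 CRISPRi foregut LFNG was -0.31 by limma voom, and in foregut against endoderm PCDH8 was -0.82. Leaving out 1 library at a time gave, for LTR5 CRISPRi in endoderm, HES7 -0.012 to 0.16, DLL1 -0.52 to 0.62 and PCDH8 -1.83 to 0.50, for LTR5 CRISPRi in foregut TBX6 -2.08 to 1.44, LFNG -1.76 to 0.79, DLL3 -0.38 to 0.78 and MESP2 -6.01 to 6.38 with a group at 0, and for foregut against endoderm PCDH8 -4.98 to 1.41. Where a group then held 1 library, that library was assumed to vary like the others. The causes were not tested. Apart from depth per nucleus, reads limited HES7, MESP2, PCDH8, HES5 and MSGN1, with at most 94 reads in any bulk library.

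Same-numbered libraries did not deviate together (correlations from -0.059 to 0.048), so numbers do not pair the samples. With the replicate number as a block, 5 clock genes were called in endoderm against hESC, 4 in foregut against endoderm and 0 in the LTR5 CRISPRi comparisons. Under the block TBX6 was -0.16 and LFNG -0.46 in LTR5 CRISPRi foregut, and PCDH8 was -0.085 in foregut against endoderm.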

Other observations

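Other genes of the pathway were read in the same thinned nuclei. Of the receptors, NOTCH2 had a UMI in 33.3% of nuclei, NOTCH1 in 31.1%, NOTCH3 in 23.5% and NOTCH4 in 1.44%. RBPJ, the DNA-binding partner of Notch, was found in 50.8%, the Notch target HES4 in 29.1% and HES1 in 16.95%, and LEF1, a WNT effector, in 75.1%. DLL3 had a UMI in 55.8% of nuclei with NOTCH1 and in 26.7% of those without.

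MESP1 was found in 87 thinned nuclei. MESP2 had a UMI in 35.6% of these and in 5.43% of the others, DLL1 in 57.5% and 21.0%, and TBX6 in 33.3% and 11.5%. RIPPLY2, a relative of RIPPLY1, was found in 220 nuclei, of which 26.8% had MESP2 and 30.5% PCDH8, against 4.74% and 6.75% of the others. TBXT, the brachyury factor of tail bud and notochord, was found in 611 nuclei, of which 47.1% had HES7 and 24.2% DLL3, against 20.6% and 38.5% of the others. Among 1663 nuclei with PAX3, a gene of the dermomyotome and dorsal neural tube, HES7 was found in 15.1% and TBX6 in 6.80%, against 37.1% and 17.9% of nuclei without PAX3. Among 1393 nuclei with MEOX1, a somite gene, RIPPLY1 was found in 25.1% and PCDH8 in 14.8%, against 14.0% and 3.44%. These shares are from 1 preparation and carry no test.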
